A study of Mus musculus with 12 samples.

Results

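SR and hnRNP splicing factors were examined in single cultured cardiac progenitor cells (CPCs). The 46 genes were taken by name: all Srsf genes followed only by a number (11), all genes starting with Hnrnp (20), and 15 regulators named one by one, among 21729 genes of the table and 14462 with a count in any cell. They comprised 13 SR and SR-like genes, 22 hnRNP and polypyrimidine tract binding genes, 3 genes of 3′ splice site recognition and 8 tissue-regulated genes. In counts and sums below, hnRNP genes include Ptbp1 and Ptbp2. The study asked how culture changes CPCs. Its 12 libraries used here form 1 group, each holding the RNA of 1 hand-picked cell. The cells descended from c-Kit+, lineage-depleted non-myocytes, which magnetic beads selected from hearts of female FVB mice aged 12 weeks. No transgene or mutant allele is named. Per the study's methods, cells from a pair of hearts were pooled before culture. The medium was Dulbecco's modified Eagle's medium with 10% stem cell grade serum, EGF at 20 ng/ml, basic FGF and LIF at 10 ng/ml each, insulin-transferrin-selenium, B27, N2, glutamine and antibiotics, and the adherent cells had been passaged 5 times. No fresh cells were analysed here, and no value below measures an effect of culture.

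Splicing removes introns in a series of ordered complexes. U2AF and the U2 small nuclear ribonucleoprotein (snRNP) mark the end of an intron, SR proteins bound in exons mostly favour the use of nearby splice sites, and many hnRNPs, which coat nascent transcripts, oppose it. Most of these factors are present in nearly all cell types, and their balance shifts exon choice, whereas MBNL, CELF, RBFOX, QK and ESRP proteins differ in level between tissues and set cell type specific exons. Many SR and hnRNP genes limit their own protein by splicing their transcripts into forms that are degraded.

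The labels name no animal or culture for a cell, so the 12 cells count as 1 sample. No test was made, and every spread and correlation describes these cells only. Cell 1 had the lowest total, 3453708 counts, and cell 12 the highest, 5690184. Levels are given as CPM, the count per 1000000 counts of a cell. Where a gene has no count, its level could be up to that of 3 counts, which is 0.527 to 0.869 CPM. Intervals and such limits cover counting error only, because reads without molecular identifiers are not independent molecules. Cells 7, 8, 10, 11 and 12 had 10022 to 10181 genes with a count, and the other cells had 11216 to 11950. Kit, the receptor used for the sort, had counts only in cell 10, at 3.94 CPM. Fibroblast markers summed to between 6987 and 22277 CPM, and 7 of 10 were counted in every cell. Vim and Fbln2 had the highest medians of that list, 6321 and 3513 CPM, while Dcn, Lum and Postn had counts in 3, 1 and 2 cells. The fibroblast sum was 13062 CPM in cell 10, close to the median of 13507 CPM, so the sum does not separate that cell. Cardiomyocyte markers summed to 0 to 86.6 CPM, and 7 of 10, Myh6 and Actc1 among them, had no counts. Cell 10 stood apart with a sum of 10056 CPM over 10 endothelial markers against 2.93 to 124 CPM elsewhere, although Vwf and Cldn5 had no counts. Cell 3 stood apart with 1622 CPM over 10 haematopoietic markers against 2.81 to 76.3 CPM elsewhere. Of that sum 1463 CPM was Cd53, and Laptm5, Tyrobp and Fcer1g were at 0. The part that these markers play in the results below was not tested, and the counts and correlations that rest most on cells 3 and 10 are also given without them.

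The splicing factors were detected nearly throughout. Of the 46 genes, 42 (91.3%) had counts in every cell, against 35.3% of all genes in the table, and without cells 3 and 10 the count was also 42, against 37.1%. Between 42 and 44 were counted in each cell. The exceptions were Esrp1 and Srsf12, with no count in any cell, Esrp2, counted in 4 cells, and Hnrnpul2, counted in 11. Together they held 0.395 to 0.927% of the counts of a cell, with a median of 0.710%. Their summed level was lowest in cell 3 at 3949 CPM and highest in cell 9 at 9266 CPM, with a median of 7098 CPM and an SD of 1508 CPM over the 12 cells. The 5 cells with fewer genes counted had sums of 6040 to 8246 CPM, inside the range of the other 7. The summed level was 1936 CPM at the median for SR and SR-like genes and 3813 CPM for hnRNP genes.

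Levels were compared between genes as CPM per kilobase (CPM per kb) of exon length. The median level of the 44 members with counts was 29.8 CPM per kb, against 3.45 CPM per kb over 14187 genes with a length and a count. In 12 members the level lay above the 90th percentile of these genes, 55.5 CPM per kb, and in 0 above the 99th, 529 CPM per kb. With this length Hnrnpk ranked first at 238 CPM per kb, followed by Hnrnpa2b1, Srsf5 and Srsf3. With 3 other definitions of length, 9 to 10 of the top 10 members were shared and Hnrnpk stayed first. The order of the other members was not the same throughout, with a Spearman's rho of 0.93 to 0.98.

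**Figure D1:**
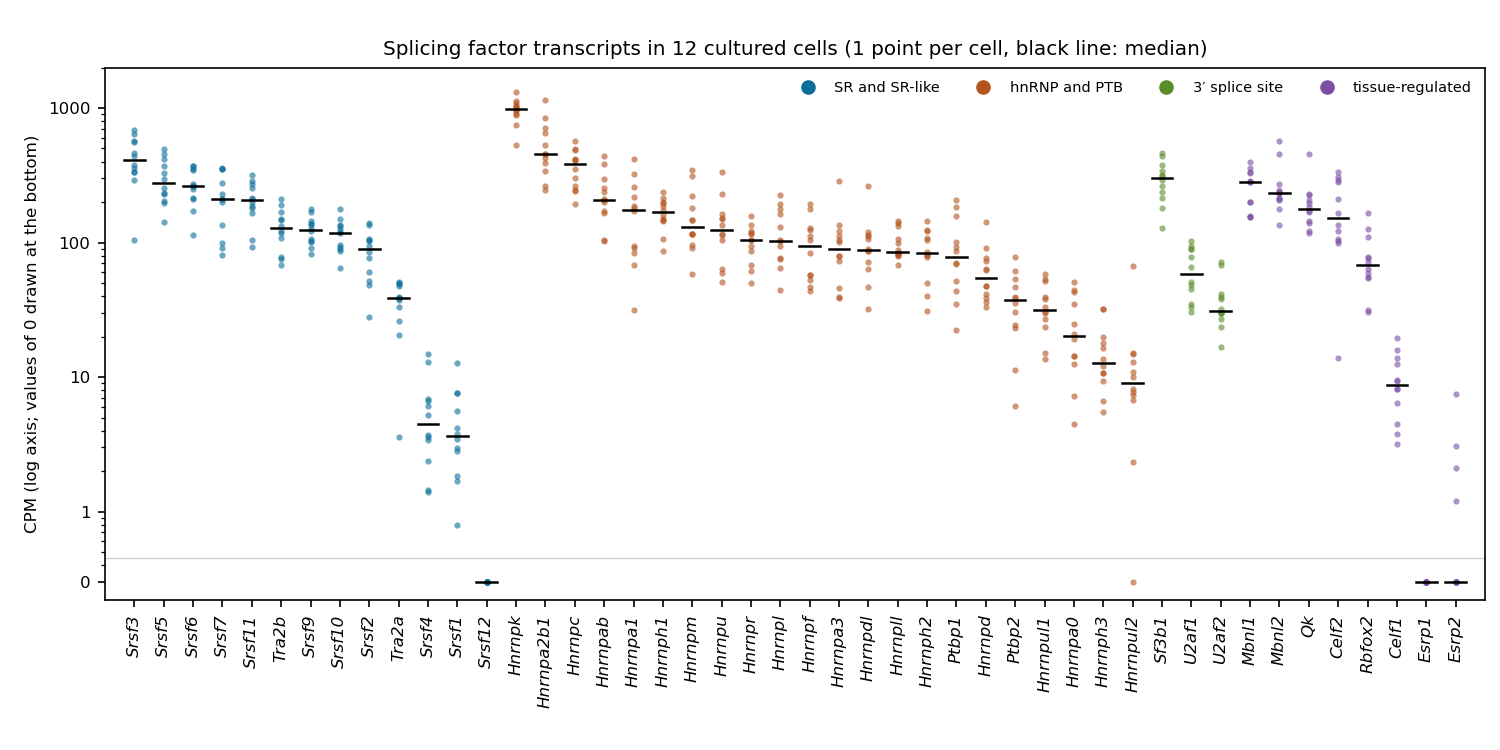
Level in CPM on a log axis of each of the 46 splicing factors, with 1 point per cell, a black line at the median of 12 cells, and colours for the 4 roles. Most members spread over less than a 10-fold range between cells, whereas Srsf4, Srsf1, Celf1 and Hnrnpul2 lay below 10 CPM at the median and Srsf12, Esrp1 and Esrp2 at 0. Heights are not corrected for gene length, so they compare cells within a gene, not genes.

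Among the SR and SR-like genes, Srsf5, Srsf3, Srsf9, Srsf7 and Srsf6 had the highest levels per length. Srsf5 ran from 143 CPM in cell 1 over a median of 275 CPM to 497 CPM in cell 11. Srsf3, the smallest SR protein, which also serves mRNA export, ran from 105 CPM in cell 3 over 408 CPM to 689 CPM in cell 4. Without cell 3 its lowest value was 293 CPM, so the wide range of Srsf3 rested on that cell. Srsf9 was among the evenest genes, at 82.8 CPM in cell 12, 125 CPM at the median and 179 CPM in cell 2. Srsf7, a shuttling SR protein with a zinc knuckle that shares the export role of Srsf3, ran from 80.7 CPM in cell 3 over 210.5 CPM to 356 CPM in cell 12. Srsf6 ran from 114 CPM in cell 3 over 263 CPM to 373 CPM in cell 9. Without cell 3 the lowest values of Srsf7 and Srsf6 were 90.8 and 173 CPM. Cell 3 thus held the lowest value of Srsf3, Srsf7 and Srsf6, but not of Srsf5 or Srsf9.

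Tra2b and Tra2a, SR-like proteins that bind purine-rich exonic enhancers, were both lowest in cell 10. Tra2b lay between 68.0 CPM in cell 10 and 211 CPM in cell 2, with a median of 128 CPM. Tra2a had 3.57 CPM in cell 10, a median of 38.7 CPM, and 20.6 to 51.0 CPM in every cell but cell 10. Cell 10, the cell with endothelial markers, was separate from the rest for Tra2a, while the next lowest value of Tra2b was 75.9 CPM.

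Srsf1, the founding SR protein (SF2/ASF; chr11:88047373-88053755, plus strand, GRCm38, GENCODE vM21), was low in these counts. It had 3 counts in cell 6 and 61 in cell 9, the highest, which correspond to 0.797 and 12.8 CPM, with a median of 3.63 CPM. At the median its level was 0.65 CPM per kb, against 156 CPM per kb for Srsf3. The 95% Poisson interval was 0.619 to 8.77 counts in cell 6 and 46.7 to 78.4 counts in cell 9; these are the lowest and the highest of 12 cells, and the intervals do not cover noise from amplification. Only 0.45% of its 75-base windows occurred in another gene and 1.76% of its exon bases overlapped one, per the annotation. Whether the counting rule lowered these values was not tested. Srsf4 was also low, at 1.39 CPM in cell 5, 4.49 CPM at the median and 14.8 CPM in cell 11. For Srsf4, 67.9% of the exon bases overlap Gm12992 in the annotation, so its reads may have been left uncounted or split. Srsf12 had no count in any cell.

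**Figure D2:**
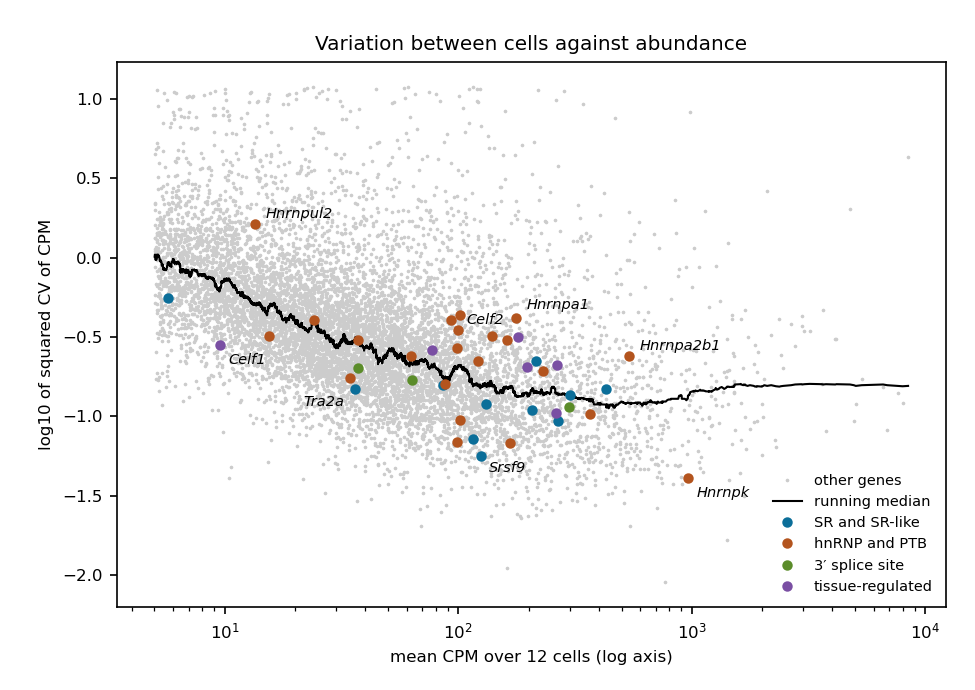
Log10 of the squared coefficient of variation (CV) of CPM over 12 cells against mean CPM on a log axis, for 9701 genes with a mean of 5 CPM or more (grey), with the running median (line) and the 42 splicing factors that passed this filter coloured by role. Hnrnpk and Srsf9 lay far below the line, and Hnrnpul2, Hnrnpa1 and Celf2 above it.

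Among the hnRNP genes, Hnrnpk, which binds C-rich RNA (chr13:58391142-58403343, minus strand), was both the highest per length and the evenest. Its level was 534 CPM in cell 3, 979 CPM at the median and 1314 CPM in cell 11, and without cell 3 the lowest value was 749 CPM. Hnrnpa2b1, an hnRNP A/B protein that often represses exons, ran from 244 CPM in cell 3 over 455 CPM to 1148 CPM in cell 5, with a lowest value of 263 CPM without cell 3. Hnrnpc, which binds uridine tracts, ran from 192 CPM in cell 1 over 382 CPM to 565 CPM in cell 5. Hnrnpk and Hnrnpc therefore stayed within a 3-fold range between cells, which Hnrnpa2b1 did not. Hnrnpab, another A/B type protein, ran from 103 CPM in cell 6 over 208 CPM to 436 CPM in cell 9.

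Hnrnpa1, the classical silencer of exons, ran from 31.4 CPM in cell 3 over 175 CPM to 419 CPM in cell 9. This 13.3-fold range rested on cell 3, without which the lowest value was 68.4 CPM. Of its 75-base windows, 27.0% occur in 14 other genes, and reads lying only in those windows cannot be placed in 1 gene. The effect on its level was not tested. Hnrnpa3, its close relative, had 26.1% of such windows shared. It lay at 289 CPM in cell 5 and between 38.9 and 136 CPM elsewhere. Cell 5 was thus high for Hnrnpa2b1, Hnrnpc and Hnrnpa3 together. Hnrnpul2, a relative of the nuclear scaffold protein Hnrnpu, lay at 66.5 CPM in cell 5, between 2.35 and 15.1 CPM in 10 cells, and at 0 counts in cell 12. Without cell 5 the highest value of Hnrnpul2 was 15.1 CPM.

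Ptbp1 and Ptbp2 bind pyrimidine-rich tracts near exons, and Ptbp1 is known to keep neuronal exons, among them one needed for Ptbp2 protein, out of transcripts in non-neuronal cells. Ptbp1 ran from 22.3 CPM in cell 5 over 78.0 CPM to 207 CPM in cell 8. Ptbp2 was counted in every cell, from 6.06 CPM in cell 3 over 37.1 CPM to 78.2 CPM in cell 12, and its lowest value without cell 3 was 11.3 CPM. Gene counts cannot show whether these Ptbp2 transcripts held the exon in question. Of 14 neuronal splicing regulators, 0 were counted in every cell, and their summed level was 0.188 to 34.5 CPM.

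The 3 genes of 3′ splice site recognition were counted throughout and varied close to genes of like mean. Sf3b1, the U2 snRNP subunit that clamps the branch point, ran from 128 CPM in cell 7 over 301 CPM to 464 CPM in cell 12. U2af1, the small U2AF subunit, which reads the last bases of the intron, ran from 30.3 CPM in cell 3 over 58.4 CPM to 102 CPM in cell 8. U2af2, the large subunit, which binds the pyrimidine tract, ran from 16.6 CPM in cell 3 over 31.0 CPM to 72.1 CPM in cell 9. Cells 8 and 9 were high for both U2AF subunits and cell 3 was low for both. Without cell 3 the lowest values were 33.4 CPM for U2af1 and 23.7 CPM for U2af2. Per length, U2af1 had the higher level of the subunits in all 12 cells, although 18.7% of its 75-base windows occur in other genes.

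The tissue-regulated genes split into a well counted set and a set near 0. Mbnl2 and Mbnl1, the muscleblind proteins that are sequestered in myotonic dystrophy, had the highest levels per length, 48.9 and 48.4 CPM per kb. Mbnl1 ran from 154 CPM in cell 1 over 281 CPM to 394 CPM in cell 12, and Mbnl2 from 135 CPM in cell 3 over 232 CPM to 570 CPM in cell 5. Qk, a STAR family protein best known from myelin, lay at 453 CPM in cell 5 and between 118 and 229.7 CPM elsewhere. Rbfox2, the broadly expressed RBFOX protein, ran from 30.2 CPM in cell 8 over 68.1 CPM to 166 CPM in cell 4. Mbnl2 and Qk were thus highest in the same cell as Hnrnpa2b1 and Hnrnpa3. Celf2, an antagonist of muscleblind proteins (chr2:6539694-7509563, minus strand), was at 13.9 CPM in cell 10, and all the others had 99.6 to 335 CPM. Celf1 was low, from 3.19 CPM in cell 6 over 8.73 CPM to 19.5 CPM in cell 10. Cell 10 was therefore the lowest cell for Celf2 and the highest for Celf1.

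Esrp1 and Esrp2, which set epithelial exons, were counted in few cells or none. Esrp1 had 0 counts in all cells. Esrp2 had 8, 5, 39 and 17 counts in cells 3, 4, 7 and 8 and 0 in the others. The highest of these, in cell 7, was 7.42 CPM, with a 95% Poisson interval of 27.7 to 53.3 counts. Of 10 epithelial markers, 0 were counted in every cell, and Cdh1, Krt8, Krt18 and Ovol1 had no counts. Their sum was 0 to 32.0 CPM, almost all of it Krt19 in cell 8, and it was 5.32 CPM in cell 7.

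The promoters of 3 members are shown, chosen after the values were seen. Among 38 members, U2af1 and Srsf7 had the highest correlation with the cell cycle genes and Srsf5 the lowest, as described below. The sequences are the 250 bases before the gene start in RefSeq, genome build GRCm38.p6, 5′ to 3′ on the strand of the gene. Capitals mark the GC box GGGCGG, the CCAAT box and the E2F-type motif TTTNNCGC, on either strand. U2af1 lies at chr17:31658755-31659004 on the minus strand, Srsf7 at chr17:80207306-80207555 on the minus strand, and Srsf5 at chr12:80945249-80945498 on the plus strand.
U2af1: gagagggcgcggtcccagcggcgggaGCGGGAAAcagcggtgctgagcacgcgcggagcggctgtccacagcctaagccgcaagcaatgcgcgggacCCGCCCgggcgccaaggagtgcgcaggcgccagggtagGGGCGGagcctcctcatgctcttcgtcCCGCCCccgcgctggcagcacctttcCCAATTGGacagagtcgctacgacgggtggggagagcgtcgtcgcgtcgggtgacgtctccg
Srsf7: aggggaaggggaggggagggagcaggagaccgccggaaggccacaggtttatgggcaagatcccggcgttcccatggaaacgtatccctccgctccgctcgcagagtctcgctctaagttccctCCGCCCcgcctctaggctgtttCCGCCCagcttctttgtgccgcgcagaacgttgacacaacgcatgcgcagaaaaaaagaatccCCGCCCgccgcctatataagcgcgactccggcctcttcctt
Srsf5: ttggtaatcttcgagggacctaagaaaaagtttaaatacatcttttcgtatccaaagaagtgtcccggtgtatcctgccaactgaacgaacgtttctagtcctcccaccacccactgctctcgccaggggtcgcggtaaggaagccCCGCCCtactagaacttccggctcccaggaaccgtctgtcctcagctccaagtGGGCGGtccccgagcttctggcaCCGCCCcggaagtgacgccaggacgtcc

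Each of the 3 windows held 3 GC boxes. The window of U2af1 also held 2 CCAAT boxes, which overlap each other on opposite strands, and 1 TTTNNCGC. Neither of these was found in the windows of Srsf7 and Srsf5. RefSeq promoters were matched for 40 of 46 members, and not for Esrp1, Esrp2, Rbfox2, Hnrnpll, Hnrnpul2 and U2af2. Over 300 bases around the start, 36 of the 40 (90%) had an observed to expected CpG ratio above 0.6, against 65.9% of 11030 promoters of genes with a count. GGGCGG was found in 80% of the member promoters against 60.8% of those genes. CCAAT was found in 52.5% against 38.4%, TTTNNCGC in 17.5% against 8.06%, TATAAA in 12.5% against 7.80% and CCGGAAG in 15% against 16.5%. The lowest GC content among the members was that of Mbnl1, at 39.3%, against a member median of 63.0%. A match describes these letters and is not evidence of binding.

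The spread between cells was measured against genes of like abundance, as a residual: log10 of the squared CV of CPM, less the running median of that quantity along mean CPM. Of 42 members tested, 7 (16.7%) had a residual above 0.3, against 19.2% of 9701 genes, and 8 (19.0%) had one below -0.3, against 14.3%. The count above the limit depended on the scaling and the limit. It was 4 of 42 (9.52%) with median-of-ratios scaling, against 20.0% of all genes, and 4 of 42 with upper-quartile scaling, against 19.6%. At a limit of 0.5 it was 1 member, Hnrnpul2, against 10.2% of all genes. It was also 4 without cell 5, against 20.0% of all genes, or without cell 6, against 19.5%. Their median residual was -0.015, and 0.00 over all genes. Of 11 SR and SR-like genes 0 exceeded 0.3 and 3, Srsf9, Srsf10 and Tra2a, lay below -0.3. Of 22 hnRNP genes, Ptbp1 and Ptbp2 included, 6 exceeded it and 4 lay below -0.3. Of these 6, 4 (Hnrnpa1, Hnrnpa3, Ptbp1 and Hnrnpm) share more than 10% of their 75-base windows with other genes. Without such members, 2 of 14 hnRNP genes and 0 of 9 SR and SR-like genes exceeded 0.3, and 3 members did in all. The difference in count between the roles was not tested. The count for SR and SR-like genes was 0 under each of 5 other scalings and without cell 3, cell 10 or both, while that for hnRNP genes ran from 3 to 8.

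The members above 0.3 were Hnrnpul2 (0.50), Hnrnpa1 (0.49), Celf2 (0.38), Ptbp1 (0.34), Hnrnpa3 (0.32), Hnrnpu (0.31) and Hnrnpm, which was just above the limit, while Hnrnpa2b1 was just under it. Without cell 10 no tissue-regulated gene exceeded the limit, and the residual of Celf2 was 0.25. The most even members were Hnrnpk (-0.52), Hnrnpll (-0.46) and Srsf9 (-0.44). Hnrnpk thus combined the highest level per length with the lowest residual of the 42. Srsf10, Srsf11, Hnrnpu, Hnrnpm, Hnrnpf and Hnrnpll are named here for values already seen.

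**Figure D3:**
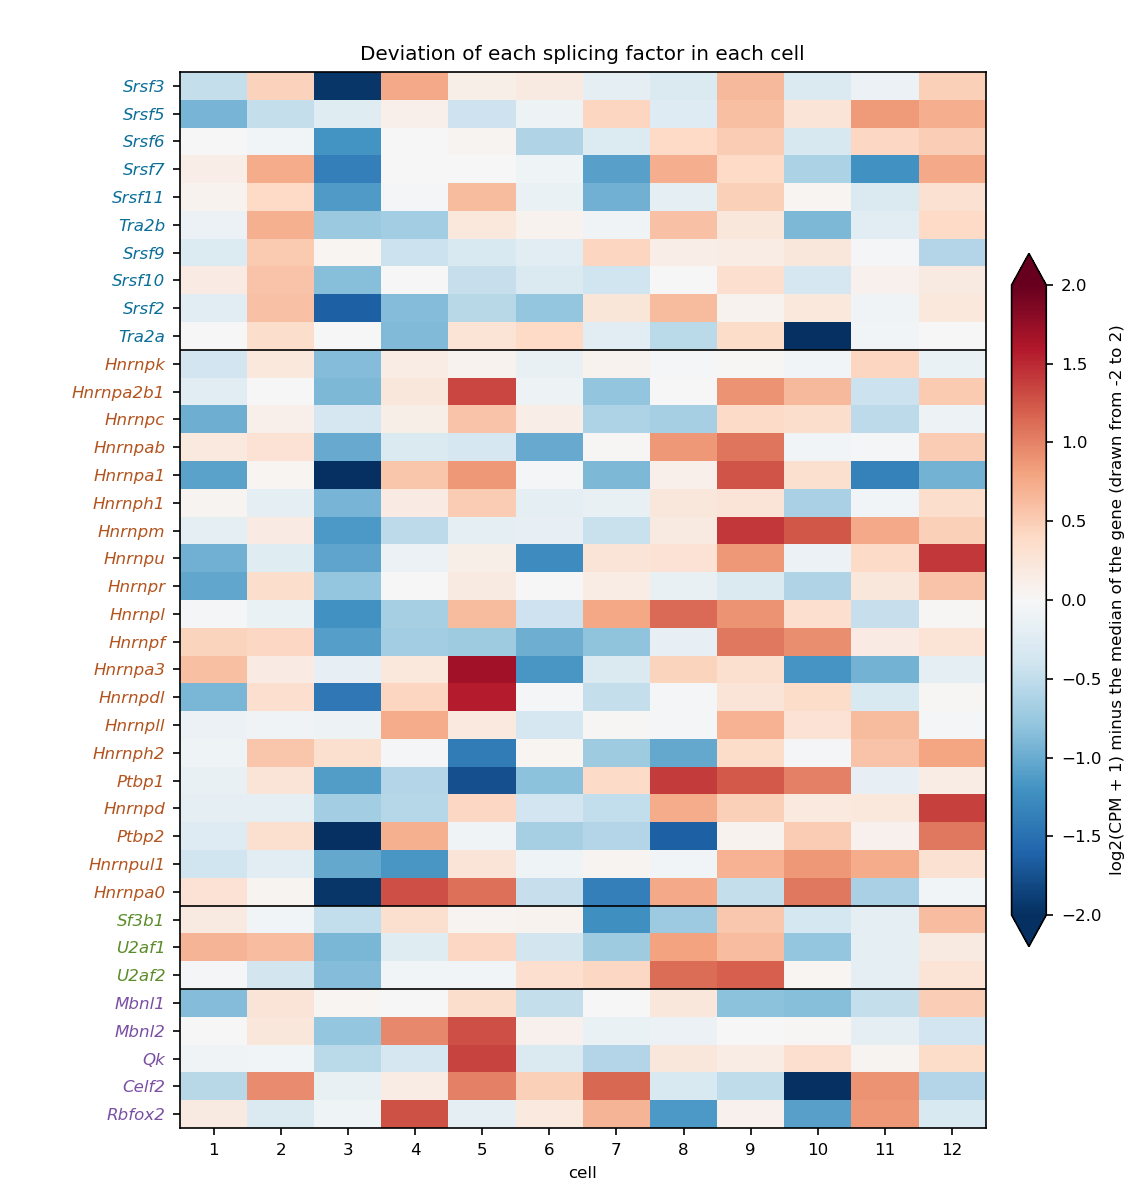
Deviation of log2(CPM + 1) from the median of the gene, for the 38 splicing factors with a mean of 20 CPM or more (rows, by role) in each of the 12 cells (columns). The scale is drawn from -2 to 2. Cell 3 was below the median in 35 of 38 rows, cell 9 was above it in 33, and cell 10 was darkest for Tra2a and Celf2.

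The deviations of the 38 members with a mean of 20 CPM or more were lowest on the whole in cell 3 and highest in cell 9. In cell 3, 35 of 38 were below their own median, where 63.7% of all genes were. The median difference was -0.89 on the log2 scale, against -0.21 over 6782 genes. Cell 3 was the lowest cell for 20 of 38 members (52.6%), where 15.1% of all genes had their lowest value there. The largest drops among the named genes were in Ptbp2, with 6.06 CPM against 11.3 to 78.2 CPM elsewhere, Hnrnpa1, with 31.4 CPM against 68.4 to 419 CPM, and Srsf3, with 105 CPM against 293 to 689 CPM. Mbnl1 at 287 CPM, Srsf9 at 128 CPM and Tra2a at 38.5 CPM in cell 3 were inside the range of the other cells and close to their medians. Cell 3 had the highest haematopoietic marker sum, but 1463 of its 1622 CPM was Cd53, and Laptm5, Tyrobp and Fcer1g had no counts. Its fibroblast marker sum was the lowest of the 12. Of that list, Dcn (223 CPM against a median of 0) and Pdgfra (276 CPM against a median of 73.1 CPM) were nevertheless at their highest there. Its mitosis genes, described below, summed to 47.7 CPM, near the low end of the cells. The part of these markers in the shift was not tested.

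Cell 9 was the opposite case. There 33 of 38 members were above their median (58.8% of all genes), with a median difference of 0.39 on the log2 scale against 0.11 over all genes. The sum of mitosis genes, 3725 CPM, was also the highest of the 12 here, and its part was not tested. Of the 38 members, 6 had their highest value in cell 9, a share of 15.8% against 14.4% of all genes. They included Hnrnpm, at 348 CPM, Hnrnpa1, at 419 CPM, U2af2, at 72.1 CPM, and Hnrnpab, at 436 CPM, whereas Mbnl1, at 158 CPM, and Celf2, at 106 CPM, were in the lower part of their ranges. In cells 5 and 12, 8 members each (21.1%) had their highest value, against 11.8% of all genes in cell 5 and 8.55% in cell 12. The median difference in cell 12 was 0.29 on the log2 scale, against -0.0021 over all genes. The members highest in cell 5 included Hnrnpa2b1, Hnrnpa3, Hnrnpc, Mbnl2 and Qk, while Ptbp1 was at its lowest, 22.3 CPM. Those highest in cell 12 included Hnrnpu, at 333 CPM, Ptbp2, at 78.2 CPM, Sf3b1, at 464 CPM, and Srsf7, at 356 CPM. Mbnl1 was high in both, at 358 CPM in cell 5 and 394 CPM in cell 12.

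In cell 10 the median difference was -0.31 on the log2 scale for SR and SR-like genes and 0.33 for hnRNP genes, against -0.15 over all genes. Both roles had genes on either side of the median of the other cells. Of SR and SR-like genes 4 of 10 were above it, where 2743 of all 6782 genes were. Of hnRNP genes 7 of 20 were below it, where 4026 of all 6782 genes were. With median-of-ratios scaling the median difference was -0.085 for SR and SR-like genes and 0.49 for hnRNP genes, against -0.016 over all genes. With that scaling 4 of 10 SR and SR-like and 17 of 20 hnRNP genes were above the median of the other cells, against 3281 of 6782 genes. Celf2, at 13.9 CPM, had 0.0832 times the median of the other cells, 167 CPM, and Tra2a, at 3.57 CPM, had 0.0918 times their median, 38.8 CPM. Ptbp1 at 158 CPM and Hnrnpm at 311 CPM in cell 10 were in the upper part of their ranges.

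Pairs of members tended to vary together. Over 703 pairs of 38 members, the median Pearson r of log2(CPM + 1) across the 12 cells was 0.29, against 0.024 over all pairs of 6782 genes. The value rested in part on cell 3, without which it was 0.14, and it was 0.18 with upper-quartile scaling. Without cells 3 and 10 it was 0.17, against 0.0069 for all genes. By role the median was 0.37 within SR and SR-like genes, 0.36 within hnRNP genes and 0.35 between the roles, and without cell 3 it was 0.29, 0.18 and 0.14. The values of a cell share 1 library and its total, and r is given as a description.

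The pairs named here were chosen after the values were seen. Srsf11 with Hnrnpa2b1 had r = 0.87 (0.86 without cells 3 and 10), Hnrnpf with Hnrnpm 0.86 (0.79), and Hnrnpul1 with Hnrnpm 0.86 (0.76), the 3 highest values. U2af1 with Srsf7 had r = 0.82 (0.74). Without cells 3 and 10, Srsf6 with Hnrnph1 went from 0.81 to 0.59, and Celf2 with Tra2a from 0.81 to 0.15. The most opposed pair was Sf3b1 with Srsf9, with r = -0.64 (-0.63).

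**Figure D4:**
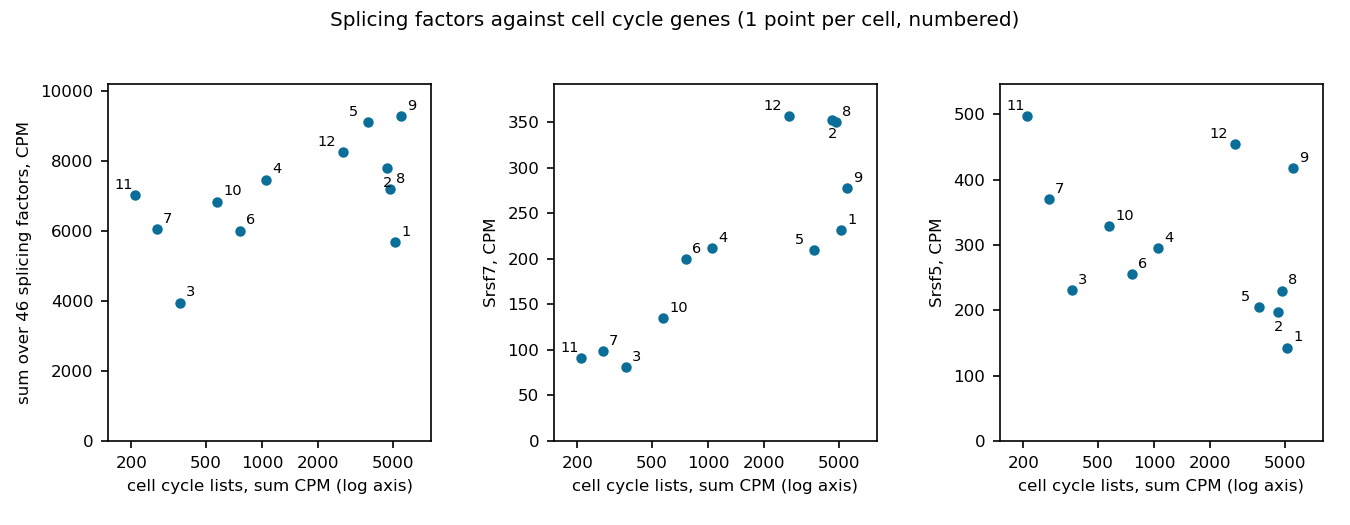
CPM summed over the 46 splicing factors (left), CPM of Srsf7 (middle) and CPM of Srsf5 (right) against the summed CPM of 17 cell cycle genes on a log axis, with 1 numbered point per cell. Srsf7 was between 209 and 356 CPM in the 6 cells on the right and between 80.7 and 212 CPM in the 6 cells on the left, and Srsf5 was lower at the median on the right.

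The cells differed widely in cell cycle genes, with 33.7 to 3725 CPM over 7 mitosis genes and 176 to 4047 CPM over 10 DNA replication genes. The widest gap in the sum of both lists lay between 1045 CPM in cell 4 and 2693 CPM in cell 12, with 6 cells on either side. This split came from the counts and not from a label. Cells 1, 2, 5, 8, 9 and 12 were above the gap. The median of 32 of 38 members (84.2%) was higher above the gap, against 52.8% of all genes. Cells 3 and 10 are both below the gap, and without them it was 31 of 38 against 47.8% (29 of 38 without cell 3 alone). Over all 12 cells, the 32 members were 8 of 10 SR and SR-like, 18 of 20 hnRNP, 3 of 3 splice site and 3 of 5 tissue-regulated genes. The summed level of the 46 members was 5669 to 9266 CPM above the gap and 3949 to 7465 CPM below it, so the sides overlapped.

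U2af1 and Srsf7 followed the cell cycle genes most closely. U2af1 was 65.7 to 102 CPM in the 6 cells above the gap and 30.3 to 51.1 CPM in those below it. It was the 1 member of 38 whose values did not overlap (2.63%), a share close to the 1.95% of all genes. The same held without cells 3 and 10, against 2.14%. Srsf7 was 209 to 356 CPM above the gap and 80.7 to 212 CPM below it. Srsf5 went the other way, with a median of 218 CPM above the gap and 312 CPM below it, although the ranges of 143 to 455 CPM and 232 to 497 CPM overlapped. Celf2 and Rbfox2 were also lower above the gap, with medians of 114 against 188 CPM and 57.5 against 93.9 CPM. For Srsf5, r over all cells was -0.45 with the cell cycle sum and -0.63 with the number of genes counted. Both values were the lowest among the 38 members. The part of the number of genes counted in the relation of Srsf5 to the cell cycle genes was not tested.

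Within either side of the gap r was positive for some members and negative for others. The median r of the members with the cell cycle sum was -0.046 over the 6 cells below the gap and -0.14 over the 6 above it. For Srsf7 r was 0.91 below and -0.19 above, for U2af1 0.18 and 0.90, and for Srsf5 -0.61 and -0.40. Over all 12 cells the median r was 0.39, and 0.055 over 6765 genes outside the cell cycle lists. Without cells 3 and 10 these values were 0.26 and -0.011. For log2 of the summed level of the members r was 0.54 (Spearman's rho 0.48) over all cells, 0.26 below the gap and -0.31 above it. Of the 38 members, 6 had a positive r on both sides. The share over all genes was not computed, so nothing about the members is drawn from this count. The summed level had r = 0.49 with the total counts of a cell and -0.067 with its number of genes counted, and their part in the relation was not tested.

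**Figure D5:**
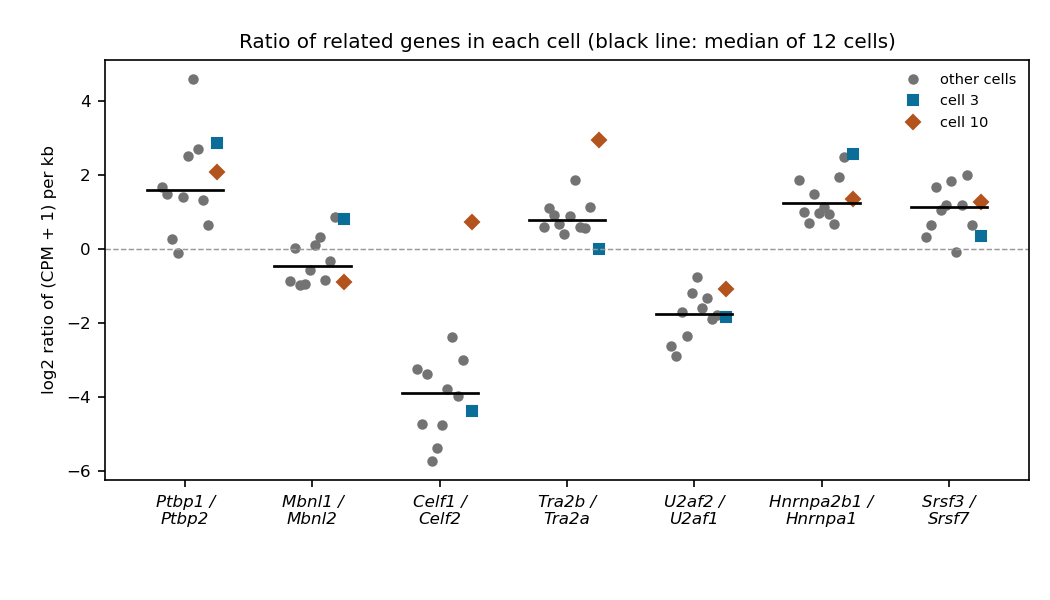
Log2 ratio of (CPM + 1) per kb for 7 pairs of related splicing factors, with 1 point per cell, cell 3 and cell 10 marked, and a black line at the median of 12 cells. A dashed line marks equal levels. With exon length as the divisor, U2af2 lay below U2af1 and Hnrnpa2b1 above Hnrnpa1 in every cell, and Celf1 exceeded Celf2 only in cell 10. For Hnrnpa2b1 over Hnrnpa1 the median was 0.023 with unshared windows of all annotated transcripts as length.

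Related genes were compared within each cell as the log2 ratio of (CPM + 1) per kb. Ptbp1 exceeded Ptbp2 in 11 of 12 cells, with a median of 1.59 and a range from -0.13 in cell 5 to 4.59 in cell 8. Celf1 lay below Celf2 in 11 of 12 cells, with a median of -3.89 and the exception, 0.73, in cell 10. U2af2 lay below U2af1 in all 12 cells, with a median of -1.75 and a range from -2.90 in cell 2 to -0.78 in cell 7. For Mbnl1 over Mbnl2 the ratio was above 0 in 5 cells and below it in 7, from -0.97 in cell 4 to 0.85 in cell 12. Tra2b exceeded Tra2a in 11 cells, with a median of 0.77, a value of -0.0085 in cell 3 and one of 2.95 in cell 10.

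The number of cells in each order depended on the length used. With the other 3 definitions of length or none, Celf1 lay below Celf2 in 11 to 12 cells, U2af2 below U2af1 in 11 to 12 and Tra2b above Tra2a in 12. Ptbp1 exceeded Ptbp2 in 9 to 12 cells, with a median of 0.72 for the mean coding transcript as length, and Mbnl1 exceeded Mbnl2 in 2 to 5, with a median of -0.86 for unshared windows. Hnrnpa2b1 exceeded Hnrnpa1 in all 12 cells with a median of 1.25, but with only windows that occur in no other gene as the length it did so in 6 cells and the median was 0.023. With all annotated exons Hnrnpa2b1 did so in 10 cells and the median was 0.53. The unshared windows were counted over all annotated transcripts, so that length differs from the exon length by more than shared sequence. Srsf3 exceeded Srsf7 in 11 cells with a median of 1.12. That median was 0.15 with unshared windows and -0.014 with all annotated exons, so no order of Srsf3 and Srsf7 is drawn.

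In most lists of the rest of the splicing pathway, nearly all genes were counted in every cell, where 35.3% of all genes in the table were. All listed genes in the table were counted in every cell for the Sm ring (8 of 8), the U2 snRNP (16 of 16), the tri-snRNP (24 of 24), the Prp19 complex and catalytic steps (21 of 21), the exon junction complex (9 of 9), SR-related proteins (16 of 16), nonsense-mediated decay (10 of 10) and SR protein import and export (3 of 3). The U1 snRNP had 9 of 10, paraspeckle and FET proteins 11 of 12, and SR protein kinases and phosphatases 10 of 12, where Srpk3 had no counts. Residuals above 0.3, the background being 19.2% of all genes, were found for 1 of 10 U1 genes (Luc7l2), 2 of 24 tri-snRNP genes (Lsm2 and Eftud2), 2 of 11 kinases and phosphatases (Clk1 and Clk4), 2 of 11 paraspeckle and FET genes (Sfpq and Tardbp) and 1 of 3 import and export genes (Tnpo1), and for 0 genes of the Sm ring, U2 snRNP, Prp19, exon junction, SR-related and decay lists. Clk1 and Clk4 phosphorylate SR proteins. Muscle splicing regulators (1 of 5) and further relatives of the tissue-regulated members (1 of 10) were mostly not counted in every cell, and Ptbp3, 1 of 2 tested among the latter, had a residual above 0.3.

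Counts per gene do not separate transcripts that code for protein from those that are degraded. In the annotation, 28 of 46 members (60.9%) have a transcript marked for nonsense-mediated decay, against 26.8% of 14110 coding genes with a count. The share was 84.6% for SR and SR-like genes and 54.5% for hnRNP genes. A retained intron form is annotated for 76.1% of the members against 55.2%. The members had a median of 9 annotated transcripts and those coding genes 5, and the shares were not matched for this number. Levels given here sum over coding, decay and retained intron forms. More than 10% of the 75-base windows of 11 members occur in other genes, 55.9% for Hnrnpf as the highest, and 15 members share none.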

How the data were processed

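Polyadenylated RNA of 12 single cultured CPCs was copied with the Smart-Seq v4 kit and made into Nextera XT libraries. The authors mapped the reads with STAR 2.5.2b to mm10, kept uniquely mapped reads and deposited raw counts per gene and cell, without normalization. The counting program, annotation and strand rule are not given in the sources used here, so overlapping genes and near copies can lose or gain reads. All columns were matched to cells by name.

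CPM was computed from the deposited counts. Exon lengths came from GENCODE vM21 on the same build, and 98.3% of symbols matched. Residuals used genes with a mean of 5 CPM or more and a count in at least 3 cells, with up to 100 genes on either side for the running median. Correlations used log2(CPM + 1) and genes with a mean of 20 CPM or more. Poisson intervals were exact, at 95%. No pair of the 66 pairs of cells agreed within sampling noise (lowest chi-square per degree of freedom 59.0). No doublet caller was run on these hand-picked cells.

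The named genes were the 5 members with the highest level per length in each role, the 5 largest residuals, all members with a median under 10 CPM, and both genes of 7 pairs. Members, lists and alternatives were chosen with earlier results of these data known. As alternatives, scalings, filters, lengths and limits were changed and single cells were left out. The steps were checked on simulated data. Protein sequences were not used here. The scripts used scipy 1.17.1, pandas 2.3.3 and numpy 2.4.6 under Python 3.11.15, and matplotlib 3.10.9 for plots.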

Additional observations from a re-analysis of the deposited data

How the results depend on the processing

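Over 18 results, 106 of 126 alternatives other than leaving out 1 cell stayed within the spread used for each result, 18 moved by more and 2 changed sign. The spread was the SD over cells for sums and ratios, a factor of 1.5 for counts, and the SD of the leave-one-out values for residuals and correlations. Without the 50 most abundant genes in the total, the summed level of all members was 8631 CPM. The median residual was -0.050 with upper-quartile scaling and -0.050 without the 50 most abundant genes, -0.079 without members that share windows with other genes, and 0.0092, with the sign changed, for genes with a mean of 20 CPM or more. The number of members above the limit was 4 with median-of-ratios scaling (20.0% of all genes), 4 with upper-quartile scaling (19.6%), 1 at a limit of 0.5 (10.2%) and 3 without members that share windows (19.2%). The median r of member pairs was 0.22 with Spearman's rho, 0.21 with median-of-ratios scaling, 0.18 with upper-quartile scaling and 0.17 without cells 3 and 10. Without a length correction the log2 ratio was 1.74 for Tra2b over Tra2a and -0.73 for U2af2 over U2af1. With unshared windows as length it was 0.023 for Hnrnpa2b1 over Hnrnpa1 and 0.15 for Srsf3 over Srsf7, and with all annotated exons 0.53 and, with the sign changed, -0.014. The r of the summed member level with the cell cycle lists was 0.44 without cells 3 and 10. Apart from those that follow from the length or the members kept, the cause of these moves was not tested.

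Leaving out each cell in turn, the median residual ran from -0.085 to 0.040, the number of members above the limit from 4 (without cell 5 or cell 6) to 8, the median r of member pairs from 0.14 (without cell 3) to 0.33, and the r with the cell cycle lists from 0.45 to 0.68. All other leave-one-out values that were run stayed within the spread. The median difference in cell 3 was -0.87 to -0.63 on the log2 scale under 5 other scalings, and that in cell 9 was 0.23 to 0.42. No paired analysis was possible because all cells belong to 1 group. The 12 cells of 1 sample allow no test, and depth limits statements on Srsf1, Srsf4, Celf1 and Esrp2. Sequence shared with gene copies or overlapping genes limits those on the 11 members with more than 10% of their windows shared. They include Srsf4, Hnrnpa1, Hnrnpa3, Hnrnpf, Hnrnpk, Hnrnpab, Hnrnpm, Ptbp1 and U2af1.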
